A study of Arabidopsis thaliana with 12 samples.

Results

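WUS, CLV3, STM, KNAT1, KNAT2, KNAT6, CUC1, CUC2, CUC3 and LAS are 10 Arabidopsis thaliana genes that maintain the shoot meristem or set the boundary between it and new organs. Binding of 6 tagged proteins at these genes was read from peak lists of chromatin immunoprecipitation with sequencing (ChIP-seq). A peak was counted for a gene when its summit, the position of highest signal, lay in the gene or within 2000 bp of it and no other protein-coding gene was nearer. The rule gave 23 of the 38038 nuclear peaks, and these lay at 8 of the 10 genes, out of 27444 nuclear protein-coding genes. Within 5000 bp of the 10 genes lay 24 further peaks that were nearer to a neighbouring gene and 1 that was more than 2000 bp away, and these are described apart.

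The plants were whole seedlings of the Ler ecotype, 10 days old, and the 12 samples were 6 immunoprecipitations and 6 inputs. Every line carried a C-terminal 2xYPet-3xHA tag on 1 protein, fused at its own locus, and an antibody against GFP was used for all of them. The tag was on 1 of the HD-ZIPIII (class III homeodomain leucine-zipper) transcription factors ATHB8, ICU4, PHB, PHV and REV, or on TPL (TOPLESS), a co-repressor without DNA binding of its own. Each protein had a single peak list. The values therefore carry no replicate error, no test compares the proteins, and a difference between proteins cannot be told apart from one between libraries. No list from plants without a tag was used. In whole seedlings, strong binding in a few cells and weak binding in many cannot be told apart.

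HD-ZIPIII proteins promote the formation of the shoot meristem in the embryo and the identity of the upper leaf side. In the meristem, the homeodomain protein WUS acts from a group of cells below the stem cells to keep these undifferentiated, and the stem cells secrete the CLV3 peptide, which limits WUS. Class I KNOX homeodomain proteins (STM, KNAT1, KNAT2 and KNAT6) hold meristem cells undifferentiated. The NAC proteins CUC1, CUC2 and CUC3 and the GRAS protein LAS act in the boundary, where organs separate and side shoots start.

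Of the 10 genes, 6 had a TPL peak and 3 had a peak of at least 1 HD-ZIPIII protein, while KNAT6 alone had both. CLV3, KNAT2, CUC1, CUC3 and LAS had TPL peaks without an HD-ZIPIII peak, WUS and KNAT1 had HD-ZIPIII peaks without a TPL peak, and STM and CUC2 had none under the rule. Over all nuclear protein-coding genes, 33.7% had a TPL peak, 26.6% a peak of at least 1 HD-ZIPIII protein, 17.9% both and 15.8% a TPL peak without an HD-ZIPIII peak. The HD-ZIPIII count of 3 in 10 was thus near the background, and 5 in 10 had TPL and no HD-ZIPIII peak. These 5 calls were all lost with lists of equal length, where TPL reached KNAT6 alone and 8.60% of all genes. By protein, PHV had a peak at 3 genes (WUS, KNAT1 and KNAT6) against 6.97% of all genes. Among peaks at or above the list's median fold enrichment, PHV reached 0 of the 10 genes and 3.75% of all genes. REV had a peak at KNAT6 (background 5.76%), ICU4 at KNAT6 (22.0%), PHB at KNAT1 (7.17%) and ATHB8 at KNAT1 (3.49%). With 10 genes, 1 gene moves a share by 10 percentage points.

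**Figure D1:**
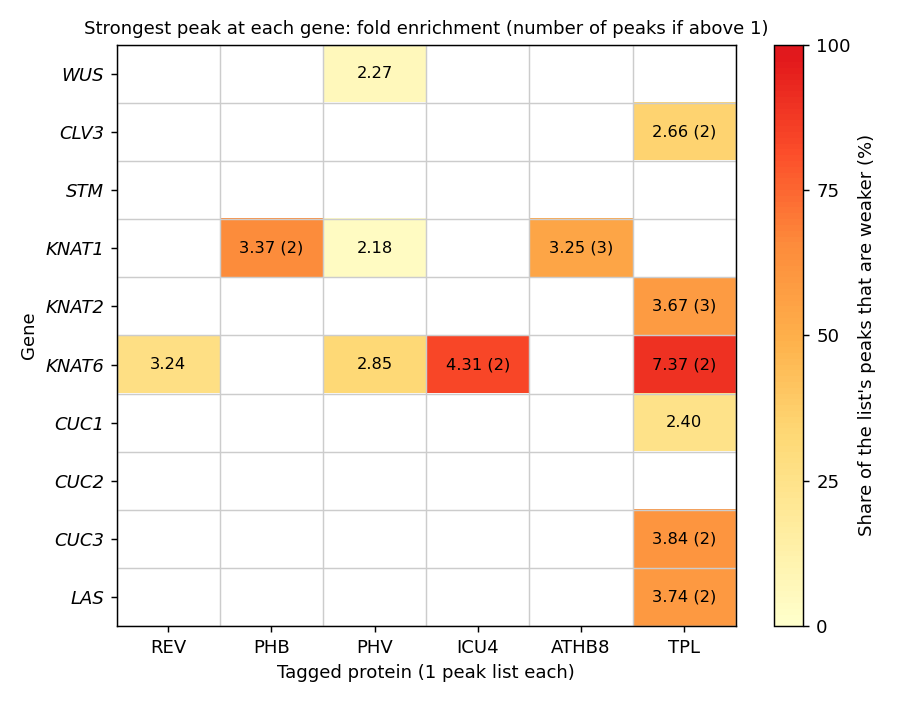
Strongest peak at each of the 10 genes (rows) in each list (columns). The number is the fold enrichment, with the number of peaks in brackets if above 1, colour is the share of the same list's peaks that are weaker, and white cells have no peak; TPL fills 6 rows and KNAT6 has peaks in 4 lists.

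How much sequence a gene can draw peaks from differs between genes and was measured beside these counts. The stretch of positions within 2000 bp that were nearer to a gene than to any other had a median of 5541.5 bp for the 10 genes and 3299 bp for all genes, and 9 of the 10 lay above the latter. Among the 3509 genes with a stretch of at least 5541.5 bp, a background chosen after the values were seen, 43.1% had a TPL peak, 18.5% a TPL peak without an HD-ZIPIII peak and 35.7% an HD-ZIPIII peak. In that set were 5 of the 10 genes (STM, KNAT1, KNAT2, KNAT6 and CUC2). Of these, 2 had a TPL peak, 2 an HD-ZIPIII peak and 1 a TPL peak without an HD-ZIPIII peak, each a share near its background. The other 4 genes with a TPL peak had shorter stretches, of 5505 bp for LAS, 5316 bp for CUC3, 4019 bp for CLV3 and 2595 bp for CUC1. LAS and CUC3 thus fell just below the cut, and only CUC1 lay below the median of all genes. The part of the stretch in the counts of the 10 genes was not tested.

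**Figure D2:**
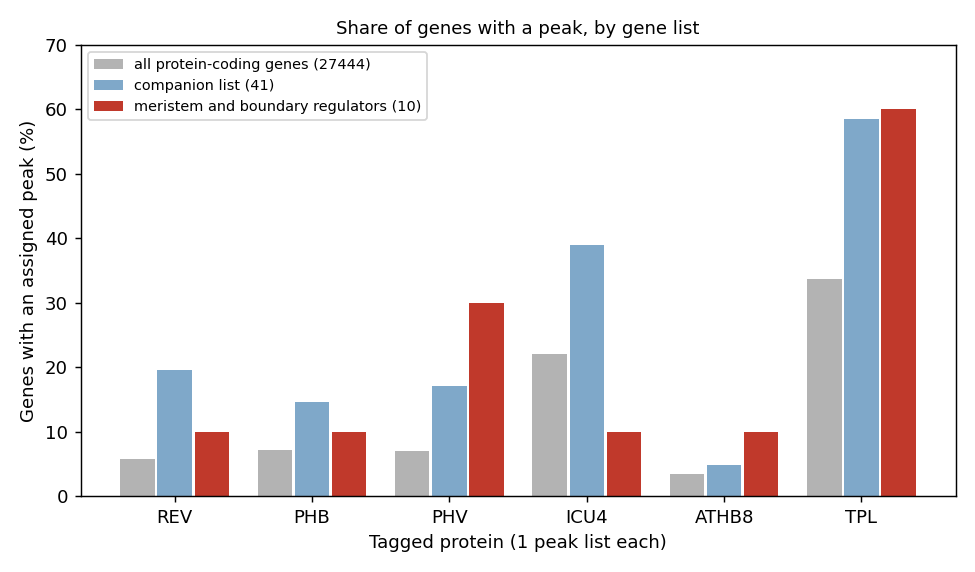
Share of genes with an assigned peak (vertical axis, %) in each list, for all 27444 protein-coding genes, a companion list of 41 meristem and boundary genes, and the 10 regulators. TPL reached 6 of the 10 regulators and 33.7% of all genes, and ICU4 reached 1 of the 10 and 22.0%.

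KNAT6 (AT1G23380, chromosome 1) acts with STM in meristem maintenance and organ separation. Among the KNOX genes it had peaks in the most lists under the rule, 4 against 3 for KNAT1. With stricter peaks this lead was lost. Both genes had 3 lists with lists of equal length, and 2 among peaks at or above the list median. Inside KNAT6, the summits of PHV (8298199), REV (8298223), ICU4 (8298223) and TPL (8298271) lay within 72 bp of each other. The TPL peak there ran from 8297865 to 8298750 and enclosed the ICU4 peak (8298049 to 8298458), the PHV peak (8298119 to 8298353) and the REV peak (8298185 to 8298248). The authors' fold enrichment was 7.37 for TPL, more than for 89.9% of TPL peaks, and 4.31 for ICU4, more than for 83.5% of ICU4 peaks. The REV and PHV peaks were in the weaker part of their lists, at 3.24 (above 27.4% of REV peaks) and 2.85 (above 32.2% of PHV peaks). A second site inside KNAT6 was shared by ICU4 (summit 8299094, 3.24-fold) and TPL (8299126, 4.14-fold), 32 bp apart. PHB and ATHB8 had no peak within 5000 bp of KNAT6. Farther out, a TPL peak of 5.02-fold had its summit at 8305371, 2720 bp from KNAT6, which was still the nearest gene, and another (3.16-fold) lay 4775 bp away and nearer to AT1G23390.

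KNAT1 (AT4G08150, chromosome 4), also called BREVIPEDICELLUS and known for its role in internode and pedicel growth, showed another arrangement, with HD-ZIPIII peaks outside the gene and no TPL peak within 2000 bp. On the lower-coordinate side, the summits of PHB (5146255), ATHB8 (5146274) and PHV (5146276) lay within 21 bp, between 1423 and 1444 bp from the gene. The fold enrichment there was 3.37 for PHB (above 65.1% of its list), 2.65 for ATHB8 (17.8%) and 2.18 for PHV (3.93%). Closer to the gene, PHB (summit 5146820, 2.22-fold) and ATHB8 (5146899, 3.25-fold) had summits 79 bp apart, and ATHB8 had another at 5147176, 523 bp from the gene, with 2.07-fold enrichment. Of these 6 peaks, the strongest PHB peak and the strongest ATHB8 peak were above the median of their lists. REV and ICU4 had no peak on this side.

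A stronger site lay on the other side of KNAT1. There PHB (summit 5155671), ICU4 (5155688), TPL (5155694) and PHV (5155697) had summits within 26 bp, between 4512 and 4538 bp from KNAT1. The fold enrichment was 9.83 for TPL (above 97.3% of its list), 5.19 for ICU4 (91.1%), 4.46 for PHB (89.3%) and 4.07 for PHV (82.1%). The PHB and PHV peaks were stronger than those of the same proteins on the lower-coordinate side, where TPL and ICU4 had none. The nearest gene was AT4G08160, which the gene table also calls ATXYN3, 3336 to 3362 bp away, so the site was outside the window of both genes.

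**Figure D3:**
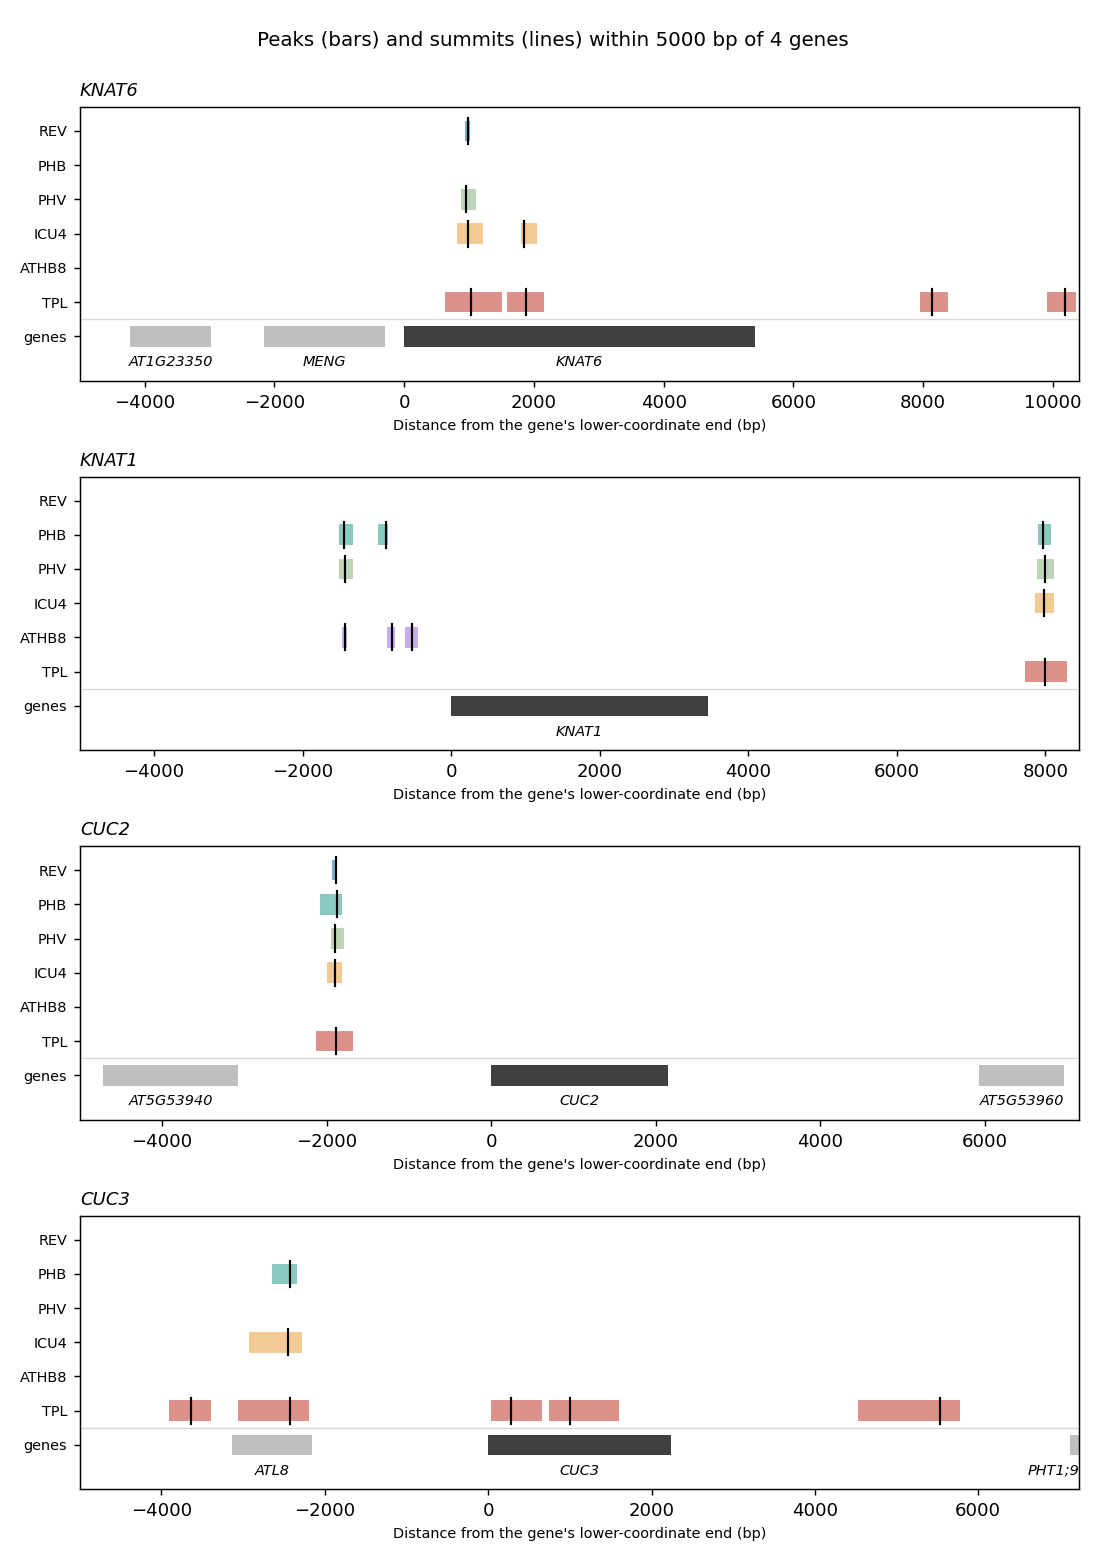
Peaks (bars) and summits (black lines) of the 6 lists within 5000 bp of KNAT6, KNAT1, CUC2 and CUC3. The horizontal axis is the distance in bp from the lower-coordinate end of the gene (dark box), and neighbouring protein-coding genes are grey; at KNAT6, at CUC2 and on the far side of KNAT1 the HD-ZIPIII and TPL summits stack, and on the near side of KNAT1 there is no TPL peak.

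KNAT2 (AT1G70510, chromosome 1), the closest relative of KNAT6, had 3 TPL peaks and no HD-ZIPIII peak. Their summits lay 1038 bp outside the gene (26575448) and inside it (26580596 and 26581153), with fold enrichments of 3.27, 2.95 and 3.67. The TPL list had a median of 3.22, so all 3 were near the middle of that list. ICU4 peaks of 2.54-fold and 2.66-fold and a TPL peak of 2.68-fold at 3935 to 4746 bp from KNAT2 lay inside CRK2, a receptor-like kinase gene. STM (AT1G62360, chromosome 1), the KNOX gene without which the shoot meristem is not maintained, had no peak under the rule. The single peak within 5000 bp of it was an ICU4 peak (summit 23056702, 3.17-fold), 1880 bp from STM and inside AT1G62350. No TPL peak lay within 5000 bp of STM.

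The stem-cell genes had weak peaks. WUS (AT2G17950, chromosome 2) had 1 peak, of PHV, from 7810385 to 7810600 with its summit inside the gene at 7810391. Its fold enrichment of 2.27 exceeded that of 6.51% of PHV peaks, and its −log10 q was 1.69, where the lowest in the PHV list was 1.31. No other list had a peak within 5000 bp of WUS. CLV3 (AT2G27250, chromosome 2) had a TPL peak on each side, with summits 419 bp (11664559, 2.66-fold) and 1075 bp (11666872, 2.56-fold) from the gene, above 34.8% and 31.1% of TPL peaks. A TPL and an ICU4 peak at 4013 and 4107 bp from CLV3 lay inside AT2G27260.

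Of the boundary genes, CUC1, CUC3 and LAS had TPL peaks and no HD-ZIPIII peak. CUC3 (AT1G76420, chromosome 1) had 2 TPL peaks inside the gene, with summits at 28672091 (2.82-fold) and 28672802 (3.84-fold). Together they covered 66.3% of CUC3, where the 9272 genes with any TPL-covered position had a median of 18.4%. The corresponding coverage was 26.9% for KNAT6, 22.9% for LAS, 15.0% for KNAT2 and 0.985% for CUC1, and the other 5 genes had none. A further 3 TPL peaks within 5000 bp of CUC3 were nearer to a neighbour and stronger, at 4.75-fold, 5.35-fold and 5.92-fold. The second of these, inside the ubiquitin ligase gene ATL8 with its summit at 28669384, coincided within 23 bp with ICU4 (28669361, 4.81-fold) and PHB (28669381, 3.40-fold) summits, 2422 to 2445 bp from CUC3.

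LAS (AT1G55580, chromosome 1), needed for side shoots in leaf axils, had a TPL summit inside the gene at 20764080 (3.74-fold) and another 508 bp outside it at 20763336 (2.31-fold). CUC1 (AT3G15170, chromosome 3) had 1 TPL peak, from 5109091 to 5109799, with its summit 478 bp outside the gene and a fold enrichment of 2.40, above 24.9% of the list. A further TPL peak of 2.16-fold was 1189 bp from CUC1 but nearer to AT3G15160. A TPL and an ICU4 peak at 4475 and 4649 bp from CUC1 lay inside PRPS20, which encodes a plastid ribosomal protein.

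CUC2 (AT5G53950, chromosome 5) had no peak under the rule, although 5 lists had a summit within 2000 bp of it. The summits of PHV (21899803), ICU4 (21899805), TPL (21899814), REV (21899818) and PHB (21899836) lay within 33 bp, between 1868 and 1901 bp from CUC2. They were 1172 to 1205 bp from AT5G53940 and so went to that gene. The fold enrichment was 4.6 for ICU4, above 87.4% of its list, 3.72 for PHV (75.1%), 3.44 for PHB (67.9%), 3.71 for TPL (59.4%) and 3.05 for REV (20.2%). ATHB8 had no peak within 5000 bp of CUC2. If a peak was given to every gene within 2000 bp of its summit, CUC2 had peaks in 5 lists and STM an ICU4 peak, and 5 of the 10 genes had an HD-ZIPIII peak in place of 3, while the share of all genes rose from 26.6% to 42.3%. Under that assignment ICU4 reached 3 of the 10 genes and 36.5% of all genes.

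Transcripts of CUC1 and CUC2 are cleaved under the control of the microRNA miR164, which has 3 genes in Arabidopsis. At MIR164B (AT5G01747, chromosome 5), the summits of PHB (287623), PHV (287644) and TPL (287664) lay inside the gene and that of ICU4 (287576) 8 bp outside it. Fold enrichment was 3.09 for PHB, 3.09 for PHV, 2.16 for TPL and 3.67 for ICU4. The nearest protein-coding gene, AT5G01750, was 2053 to 2141 bp away. At MIR164A (AT2G47585, chromosome 2) the nearest ICU4 and TPL summits (2.91-fold and 2.70-fold) were 876 and 898 bp away and nearest to the protein-coding gene U1A, and a REV summit was 1629 bp away, inside PHR2. Within 2000 bp of MIR164A, ICU4 and TPL had 2 summits each. MIR164C (AT5G27807) had no summit of any list within 5000 bp, the nearest being an ICU4 summit 9852 bp away. No background share of non-coding genes is given for these sites.

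Within 5000 bp of the 10 genes, summits of different lists came within 100 bp of each other at 8 places. At 4 of these the nearest gene within 2000 bp was KNAT6 or KNAT1, and the other 4, at KNAT1, CUC2, CUC3 and CLV3, were nearer to a neighbour. TPL was present at 6 of the 8, all but both KNAT1 sites on the lower-coordinate side. Of the 11 HD-ZIPIII peaks counted for the 10 genes, 4 overlapped a TPL peak, and all 4 were at KNAT6. The 6 at KNAT1 and the 1 at WUS did not, so the count rests on 3 genes, and peaks at 1 gene are not independent. Over all 16882 HD-ZIPIII peaks assigned to a gene the overlapping share was 70.1%, from 30.9% for ATHB8 to 81.5% for PHB. ICU4 gave 8319 of the 16882 peaks but 2 of the 11, and ATHB8 gave 3 of the 11. Among the 12 TPL peaks, 2 met an HD-ZIPIII peak, against 40.9% of all 12785 nuclear TPL peaks, whether or not assigned to a gene. More than 1 TPL peak was found at 5 genes (CLV3, KNAT2, KNAT6, CUC3 and LAS), against 8.13% of all genes. Of the 5 with a stretch of at least 5541.5 bp this held for 2, KNAT2 and KNAT6, against 16.0% of all genes with such a stretch. With lists of equal length, TPL had 1 peak in all at the 10 genes, so none of them kept more than 1.

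The peaks counted for these genes were mostly of middling or low strength in their lists. In the TPL list 6 of 12 exceeded the list's median fold enrichment of 3.22, and their own median was 3.11. Among the HD-ZIPIII peaks 4 of 11 exceeded the median of their list, namely both ICU4 peaks at KNAT6 and 1 PHB and 1 ATHB8 peak at KNAT1. The 3 PHV peaks lay between 2.18 and 2.85, below that list's median of 3.14. No peak of the 23 was among the strongest 10% of its list, the TPL peak at 7.37 in KNAT6 coming closest.

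**Figure D4:**
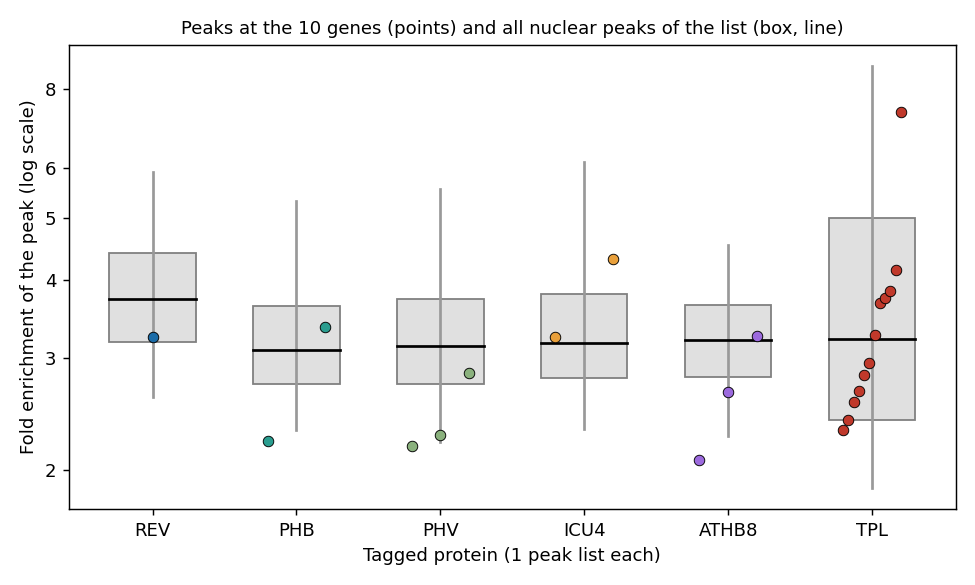
Fold enrichment (vertical axis, log scale) of the peaks at the 10 genes (points) beside all nuclear peaks of the same list (box from the 25th to the 75th percentile, black line at the median, grey line from the 5th to the 95th). The highest TPL point, 7.37, is at KNAT6, and the 3 PHV points lie below the PHV median of 3.14.

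Under the rule, KNAT6 had peaks in more lists than the other 9 genes, although with every gene within 2000 bp CUC2 had 5 lists against 4. By the strength of the best peak in each of the 6 lists, the genes most like KNAT6 were AT3G14067, AT4G16500 and CSLA02 (AT5G22740). Likeness was the summed absolute difference of percentiles within the lists, and it came to 30.0, 32.2 and 32.6 percentage points. AT3G14067 had the same 4 lists as KNAT6, with a fold enrichment of 6.55 for TPL and 3.93 for ICU4. AT4G16500 and CSLA02 also had a weak PHB peak (2.55-fold and 2.65-fold). In all, 88 genes had peaks of REV, PHV, ICU4 and TPL without PHB and ATHB8, as KNAT6 did. The KNAT1 combination of PHB, PHV and ATHB8 without the other 3 proteins was found at 13 genes, and a PHV peak alone, as at WUS, at 127.

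The regulators were set beside the companion list of 41 other protein-coding genes, chosen as their relatives, partners or receptors or as further boundary and axillary genes. Of these, 24 had a TPL peak (58.5%), 18 a peak of at least 1 HD-ZIPIII protein (43.9%) and 17 both (41.5%), where the backgrounds were 33.7%, 26.6% and 17.9%. The list was chosen with earlier results of these data known, and the stretch of its genes was not compared with that of all genes. By protein, ICU4 reached 16 of the 41 (39.0%, background 22.0%), REV 8 (19.5%, 5.76%), PHV 7 (17.1%, 6.97%) and PHB 6 (14.6%, 7.17%). ATHB8 reached 2 (4.88%), near its background of 3.49%. Genes of CLV3 receptors and their partners had HD-ZIPIII peaks in 5 of 7 cases, against 26.6% of all genes. In 4 of the 7, CLV1 and CRN among them, a TPL peak was present as well. At CRN the summits lay inside the gene, with fold enrichments of 6.91 for TPL, 4.95 for REV, 4.94 for ICU4, 4.16 for PHB and 2.48 for PHV. At CLV1 they were 2.73 for REV, 2.80 for PHB, 4.43 for ICU4 and 8.37 for TPL. CLV2 was the 1 companion gene with an HD-ZIPIII peak, of ATHB8, and no TPL peak.

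BELL homeodomain proteins pair with KNOX proteins. Of the 6 BELL genes on the companion list, 4 had both HD-ZIPIII and TPL peaks, against 17.9% of all genes. PNY (AT5G02030), a partner of STM and KNAT1, was the only gene of the 41 with a peak in all 6 lists. On chromosome 5, outside the gene, it had summits at 394933 for ICU4, 394935 for REV, 394945 for PHV, 394954 for TPL, 394962 for PHB and 394975 for ATHB8. Fold enrichment at this site reached 10.9 in the ICU4 list (above 99.3% of its peaks) and 7.02 in the PHB list (98.3%), more than at any ICU4 or PHB peak counted for the 10 regulators. It was 6.33 for PHV, 5.79 for TPL, 4.81 for REV and 3.61 for ATHB8. BLH2 and BLH4, whose products hold back KNOX genes in leaves, had TPL peaks of 7.72-fold and 11.6-fold and ICU4 peaks of 4.31-fold and 3.29-fold. BEL1, an ovule identity gene, had 5.71-fold for TPL and 3.65-fold for ICU4 at separate sites. The ICU4 peak of BEL1 lay in another TPL peak, of 4.44-fold.

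Class II KNOX genes, which promote differentiation, had TPL peaks in 3 of 4 cases, against 33.7% of all genes. The strongest TPL peak was 11.3-fold at KNAT4 and 5.38-fold at KNAT3. Both also had REV and ICU4 peaks, which at KNAT4 lay in another TPL peak, of 7.86-fold. Of 6 WUS-related homeobox genes, 4 had a TPL and 2 an ICU4 peak, against 33.7% and 22.0% of all genes. Of 3 HAM genes, which encode GRAS partners of WUS, 2 had both. Over all genes, 17.9% had both an HD-ZIPIII and a TPL peak. Groups of so few genes cannot set these counts apart from the background. Of the 15 boundary and axillary genes, 9 had no peak in any list. Near the backgrounds of 33.7% and 26.6% of all genes, 6 of the 15 had a TPL peak and 3 an HD-ZIPIII peak. Among them, HAN, a GATA factor gene of the boundary, had summits of ICU4 (18909864), PHV (18909865), PHB (18909876), REV (18909878) and TPL (18909910) on chromosome 3, with 9.56-fold enrichment for TPL, and BOP1 had 3.17-fold for PHB, 3.29-fold for ICU4 and 2.06-fold for TPL. No peak in any list was counted for 16 of the 41.

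**Figure D5:**
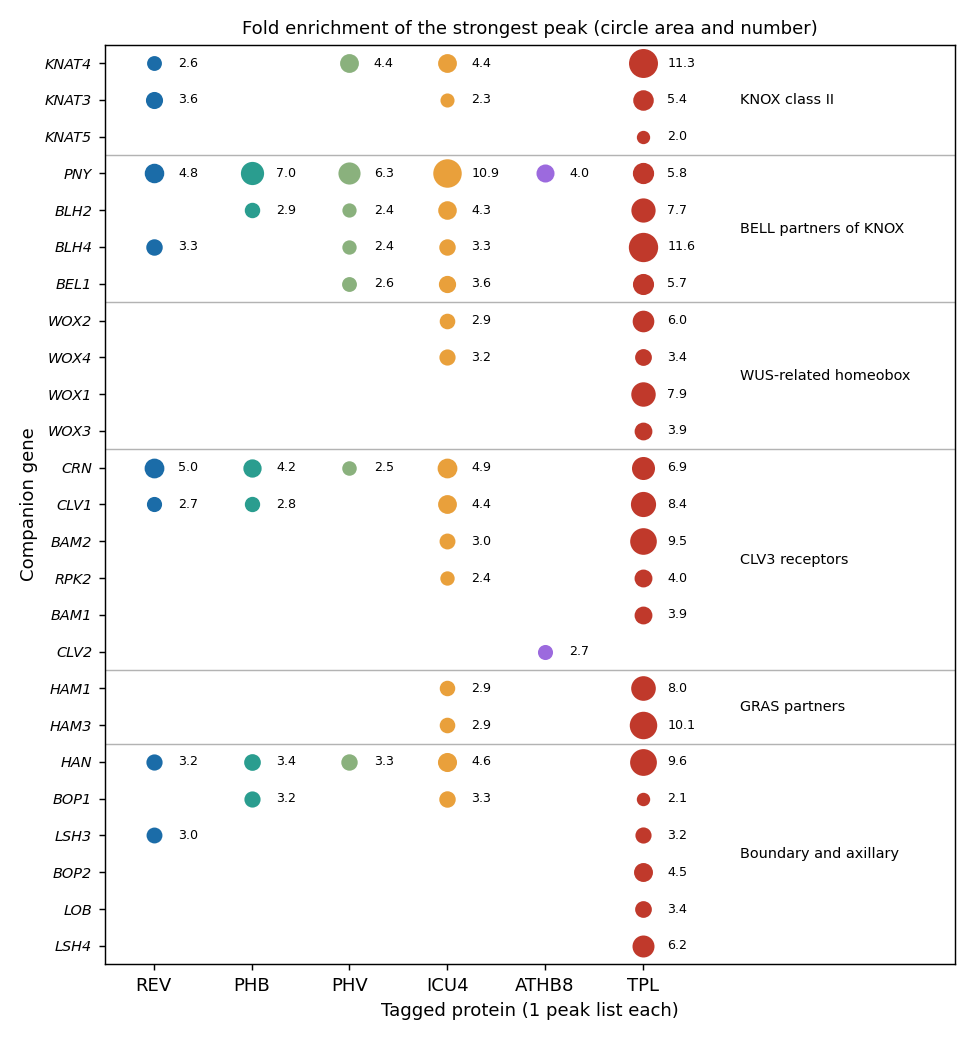
Fold enrichment of the strongest peak (number and circle area) at the companion genes with at least 1 peak (rows, by group) in each list (columns); values are read within a column. PNY has a circle in all 6 columns, and 24 genes have one in the TPL column.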

How the data were processed

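ChIP-seq peak lists of 6 tagged proteins were analysed, 1 per protein, and 6 inputs entered through the authors' peak calling alone. Reads were processed with Bowtie2 and MACS2 on TAIR10, per the submitters' processing notes; versions and settings are not given in the sources used here. The series text mentions duplicates, and pooling is not stated. Per the file headers, the authors deposited for each peak positions, a pileup (coverage signal), p-values and q-values as −log10, and the fold enrichment, a linear ratio to local background; each is the authors' own value for a peak and was read within its list. Library depth is unknown.

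Peaks on the 5 nuclear chromosomes were assigned with Python 3.11.15 and pandas 2.3.3 to genes of the NCBI RefSeq table of TAIR10.1, all 10 matching by locus tag; its nuclear coordinates were taken as those of TAIR10. Ties went to the shortest gene. The table has no strand, exons or sequence, so sides are given by coordinate, no sequence is printed and a planned search for 3 motifs was not run. No test was made. Assignment was tested on simulated summits. Members, companion list and naming rules (up to 10 companion genes in most lists, then by ICU4 and TPL fold enrichment; 3 genes most like the member in most lists) were chosen with earlier results of these data known. CLV2, the MIR164 genes and the counts of genes sharing a combination of lists were described after their values were seen. The alternatives were other windows, other assignments, stricter peaks, lists of 2790 peaks and other overlaps.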

Additional observations from a re-analysis of the deposited data

How the results depend on the processing

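Of 192 values recomputed under an alternative, 143 stayed within 1.5 times the main value and 49 did not. A window of 5000 bp and the use of the whole peak in place of the summit moved none. With 1000 bp the PHB peaks at the 10 genes went from 2 to 1, and ATHB8 reached 1 companion gene in place of 2, as it also did with the nearest gene of any type. With every gene within 2000 bp, REV reached 2 of the 10 genes with 2 peaks, PHB 2 genes, and ICU4 3 genes with 4 peaks. HD-ZIPIII peaks were then at 5 genes, both kinds of peak at 2, and 8 HD-ZIPIII peaks overlapped a TPL peak; the shares of all genes were 9.75% (REV), 12.7% (PHB), 11.8% (PHV), 36.5% (ICU4), 5.48% (ATHB8) and 52.2% (TPL). Among peaks at or above the median fold enrichment of their list, REV and PHV had 0 peaks at 0 of the 10 genes, PHB 1, ATHB8 1 and TPL 6 peaks, 2 HD-ZIPIII peaks overlapped TPL, companion genes numbered 2 (REV), 3 (PHV), 10 (ICU4) and 1 (ATHB8), and the shares were 2.14% (REV), 4.0% (PHB), 3.75% (PHV), 12.4% (ICU4), 1.46% (ATHB8) and 18.7% (TPL). With lists of equal length, REV had 0 peaks at 0 genes, ICU4 1 peak, and TPL 1 peak at 1 gene, KNAT6, so that the TPL peaks at the other 5 genes were lost; 2 HD-ZIPIII peaks overlapped TPL, companion genes numbered 2 (REV), 7 (ICU4), 1 (ATHB8) and 13 (TPL), and the shares were 1.95% (REV), 7.87% (ICU4), 1.70% (ATHB8) and 8.60% (TPL). Both stricter choices hold fewer peaks by construction. Other definitions of overlap changed neither the 4 HD-ZIPIII peaks that met a TPL peak nor the 1 gene with both. No paired analysis was possible because each group had 1 sample. Depth is unknown, and a gene without a peak is not shown to be unbound.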
